A study of Mus musculus with 6 samples.

Results

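The genes described here are 43 DNA repair genes, chosen by name from the main repair pathways of the mouse, out of 21938 protein-coding genes annotated in GENCODE M21 on mm10. They were read against 1 merged set of 11106 peaks of H3K56ac, the acetylated form of lysine 56 in the core of histone H3, measured by ChIP-seq in the mouse embryonic stem cell (mESC) line V6.5. The cells were grown on feeder cells with LIF and had been infected with a lentivirus carrying an shRNA, either a scrambled control (Scramble) or one against Sirt6 (Sirt6 KD). The labels list 6 libraries, namely 2 H3K56ac libraries and 1 input library for each shRNA. The merged peaks name no library and carry no height, so Scramble and Sirt6 KD cells could not be compared, and the values below are positions and widths in the pooled set. A peak base lay within 1 kb of a transcription start site (TSS) in 6 of 6 stem cell marker genes and in 0 of 6 feeder fibroblast marker genes, beside 35.6% of all protein-coding genes outside the repair list. With the midpoint of the peak within 1 kb, the count of stem cell markers was 4 of 6.

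SIRT6 is a chromatin deacetylase that removes the acetyl group of H3K56 and is known to act in the repair of DNA breaks and of damaged bases. Repair itself is divided among pathways: damaged bases and single-strand breaks are cut out and sealed, bulky lesions are removed with a stretch of the strand, mismatches left by replication are corrected, and double-strand breaks are joined directly or copied from the sister chromatid. Embryonic stem cells divide rapidly and are known for high activity of many repair factors.

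A promoter peak, defined as a peak whose midpoint lay within 1 kb of a TSS of any transcript of the gene, was present at 36 of the 43 genes. This is a share of 83.7%, with a Wilson 95% interval of 70.0% to 91.9% that covers the counting error over genes alone. Among all other protein-coding genes the share was 33.8% (7394 of 21895). Most repair genes start in CpG-rich DNA, so the closer comparison is with CpG-rich promoters, those whose observed/expected CpG ratio exceeded 0.6 in a window reaching 500 bp to each side of the annotated 5′ end. There, 33 of 38 repair genes had a promoter peak (86.8%, interval 72.7% to 94.2%), against 57.5% (5773 of 10040) of the other CpG-rich promoters. The difference was 29.3 percentage points, with an interval of 15.2 to 36.7. This interval is that of the repair share, with the share of the other promoters held fixed. The difference describes a list chosen by name with earlier results of these data known, and it was not tested. Where a peak base within 1 kb was enough, 37 of the 43 repair genes had one (86.0%). Among CpG-rich promoters these were 34 of 38 repair genes (89.5%) and 60.3% of the others.

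The genes whose promoters show the range of the data are printed first. The sequences are the RefSeq promoters on GRCm38.p6, the assembly behind mm10, from 250 bases before to 50 bases after the start, read 5′ to 3′ along the gene. Msh6 had the widest promoter peak, Ercc2 the narrowest and Xrcc1 the most centred. Xpa, Prkdc and Trp53bp1 are the 3 CpG-rich genes of the list with the farthest nearest peak, and Prkdc is named only. Apex1, which shares its start region with Osgep, was chosen after its values were seen. Capitals mark matches, on either strand, to a CCAAT box (CCAAT), a GC box (GGGCGG), the core of an NRF1 site (GCATGCGC) or an E2F site (TTTCCCGC).
Msh6 (chr17:87974800-87975099, plus strand): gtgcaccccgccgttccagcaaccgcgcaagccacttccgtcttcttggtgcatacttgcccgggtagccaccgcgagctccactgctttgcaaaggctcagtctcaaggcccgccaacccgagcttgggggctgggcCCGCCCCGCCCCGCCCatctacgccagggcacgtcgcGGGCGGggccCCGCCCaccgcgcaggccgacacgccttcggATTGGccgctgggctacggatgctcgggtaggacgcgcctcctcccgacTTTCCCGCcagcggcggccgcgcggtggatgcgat
Ercc2 (chr7:19381767-19382066, plus strand): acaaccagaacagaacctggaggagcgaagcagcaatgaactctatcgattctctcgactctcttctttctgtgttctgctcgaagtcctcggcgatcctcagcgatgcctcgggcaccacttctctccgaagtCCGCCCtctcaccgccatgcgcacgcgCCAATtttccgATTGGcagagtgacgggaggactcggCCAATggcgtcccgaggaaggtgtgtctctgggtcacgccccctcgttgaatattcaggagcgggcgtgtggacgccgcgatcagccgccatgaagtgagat
Xrcc1 (chr7:24546449-24546748, plus strand): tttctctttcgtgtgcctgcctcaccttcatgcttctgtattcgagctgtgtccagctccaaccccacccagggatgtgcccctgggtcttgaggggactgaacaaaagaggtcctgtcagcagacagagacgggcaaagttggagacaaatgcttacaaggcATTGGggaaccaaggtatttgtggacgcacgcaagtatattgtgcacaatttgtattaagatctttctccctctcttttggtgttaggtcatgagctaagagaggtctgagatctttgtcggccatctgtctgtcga
Apex1 (chr14:50924699-50924998, plus strand): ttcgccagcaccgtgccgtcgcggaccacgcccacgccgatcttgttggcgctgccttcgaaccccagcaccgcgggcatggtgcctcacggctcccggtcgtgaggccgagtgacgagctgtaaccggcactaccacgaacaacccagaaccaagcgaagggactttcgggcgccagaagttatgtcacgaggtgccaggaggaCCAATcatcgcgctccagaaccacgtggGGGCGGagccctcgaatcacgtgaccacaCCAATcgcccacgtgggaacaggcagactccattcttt
Xpa (chr4:46196262-46196561, minus strand): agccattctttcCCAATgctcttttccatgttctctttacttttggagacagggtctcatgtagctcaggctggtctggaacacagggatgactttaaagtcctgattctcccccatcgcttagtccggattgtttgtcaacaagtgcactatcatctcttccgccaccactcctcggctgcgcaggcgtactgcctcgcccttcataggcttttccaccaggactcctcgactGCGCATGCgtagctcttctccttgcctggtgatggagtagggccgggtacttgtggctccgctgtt
Trp53bp1 (chr2:121271358-121271657, minus strand): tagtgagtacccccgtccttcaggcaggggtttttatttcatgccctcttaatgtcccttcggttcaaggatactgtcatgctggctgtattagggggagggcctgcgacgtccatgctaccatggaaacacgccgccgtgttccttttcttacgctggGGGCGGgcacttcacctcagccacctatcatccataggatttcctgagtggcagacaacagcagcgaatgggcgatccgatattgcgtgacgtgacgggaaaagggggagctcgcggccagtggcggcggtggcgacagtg
The Msh6 window lay wholly under its peak and held 37 CpG dinucleotides, with 5 GC boxes, 1 CCAAT box and 1 E2F match. The Apex1 window, also wholly under a peak, held 31 CpG. None of the Ercc2 window lay under the peak of that gene, which began farther downstream, although it held 27 CpG and 3 CCAAT boxes. Xrcc1 had only 7 CpG in a window that was wholly under its peak, since the RefSeq start lies 501 bp from the midpoint and the annotated start nearest to it is another. Without a peak, the Xpa and Trp53bp1 windows held 12 and 20 CpG.

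Single-strand break repair was represented by 4 genes, of which 3 had a promoter peak. Xrcc1, the scaffold on which this pathway assembles, had a peak of 2218 bp (chr7:24546092-24548309) whose midpoint lay 1 bp from a TSS. Lig3, the ligase that acts with it, had a peak of 2280 bp (chr11:82779809-82782088) centred 160 bp upstream of its TSS. Both covered close to 1 kb or more on each side of the start. Parp2, which like PARP1 builds poly(ADP-ribose) at breaks, had a narrower peak of 1036 bp (chr14:50807749-50808784) that reached 197 bp upstream and 838 bp downstream. Parp1 itself had the widest nearest peak of the 43 genes, 4422 bp (chr1:180568826-180573247). That peak covered 3 TSS of Parp1, but its midpoint lay 1810 bp downstream in an intron, so it was not a promoter peak by the midpoint rule.

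Base excision repair had a promoter peak at 4 of 5 genes. Apex1, the endonuclease that cuts at abasic sites, had 3068 bp (chr14:50923507-50926574), wider than 92.6% of the promoter peaks at other CpG-rich genes. Tdg, a glycosylase for thymine and for oxidised methylcytosine, had 2322 bp (chr10:82628754-82631075) centred 38 bp from a TSS. Ogg1, the glycosylase for 8-oxoguanine, had 1876 bp (chr6:113325905-113327780), centred 130 bp upstream. All 3 covered the TSS. Mpg, the glycosylase for alkylated purines, had 878 bp (chr11:32226525-32227402), of which 14 bp lay upstream and 863 bp downstream. Ung, the uracil glycosylase, had no peak at its start. Its nearest peak, 607 bp wide (chr5:114134162-114134768), lay inside the gene at a noncoding exon, and its closest base was 2082 bp from a TSS.

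Non-homologous end joining had the lowest share of any of the 8 pathways, 3 of 5 genes, but with an interval of 23.1% to 88.2% it overlapped all the others. Xrcc4 and Lig4, partners in the ligation step, had peaks of 2415 bp (chr13:90088544-90090958) and 1988 bp (chr8:9975795-9977782). Xrcc5, which encodes Ku80, had 1783 bp (chr1:72306905-72308687), reaching 516 bp upstream and 1266 bp downstream. Its partner in the Ku heterodimer, Xrcc6 (Ku70), had none. The peak nearest to Xrcc6 lay beyond the 3′ end, in an intron of Snu13, 16903 bp from a TSS inside the gene. The midpoint was 30309 bp from the start of the principal transcripts and 58843 bp from the 5′ end. Prkdc, the kinase that Ku recruits, had its nearest peak base 42821 bp away, at Ube2v2, although its CpG ratio was 0.84. Mcm4, the replication gene whose start lies 466 bp from that of Prkdc on the opposite strand, also had no promoter peak. The 2 subunits of Ku and their kinase thus gave 1 peak in 3 genes, while both ligation genes had one.

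**Figure D1:**
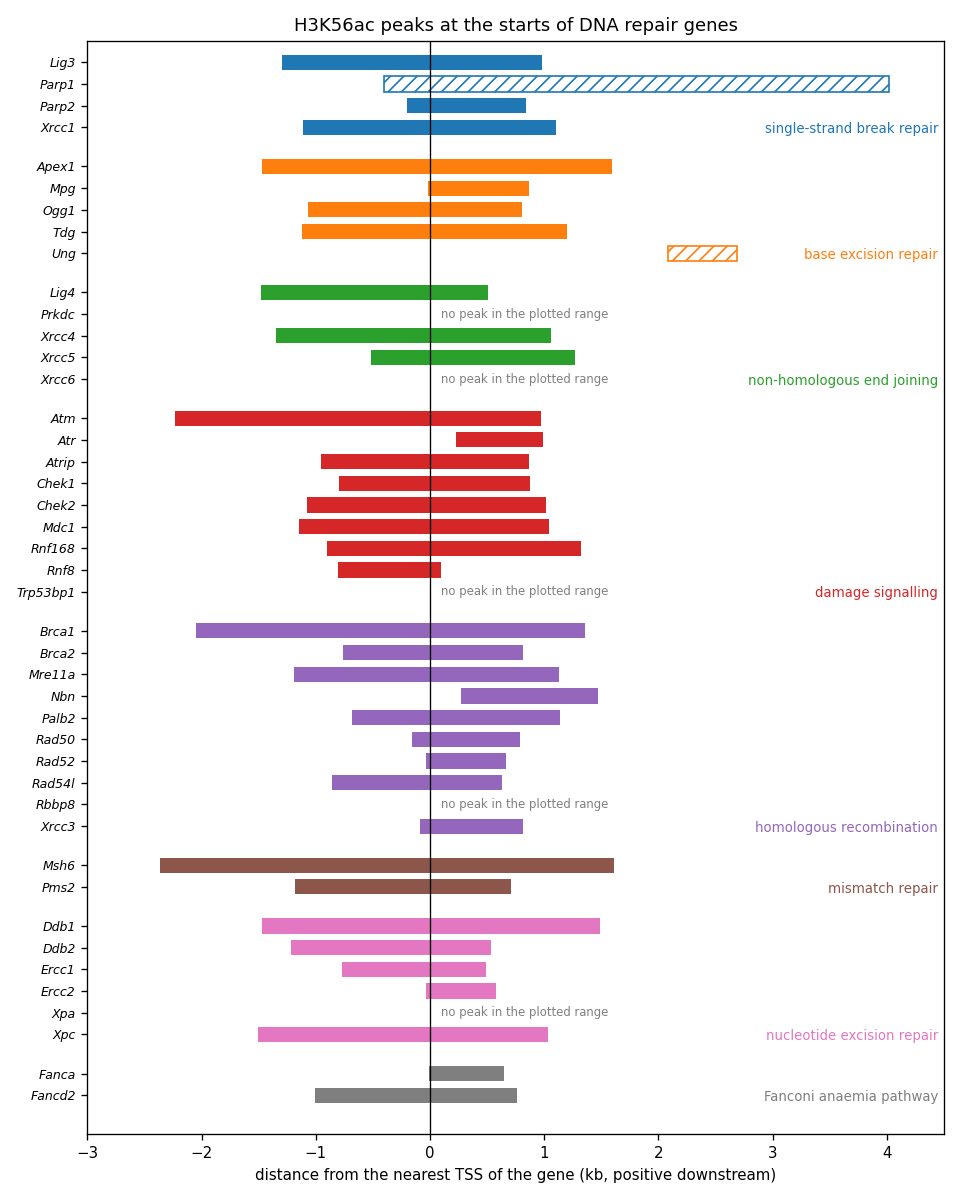
Extent of the H3K56ac peak nearest to each of the 43 repair genes, in kb from the nearest TSS (positive downstream), grouped by pathway. Filled bars are the 36 promoter peaks. Hatched bars are the peaks of Parp1 and Ung, whose midpoints lay 1810 and 2385 bp from a TSS, and 5 genes had no peak in the plotted range.

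Damage signalling, the kinases and adaptors that report breaks and stalled forks, had a promoter peak at 8 of 9 genes. Atm, the kinase of double-strand breaks, had the widest, 3198 bp (chr9:53535772-53538969), with 2229 bp upstream over the start of Npat and 968 bp downstream. Atr, the kinase of stalled forks, had the narrowest, 759 bp (chr9:95857937-95858695), which began 231 bp downstream of its TSS and covered none. The other genes with a peak were Atrip, Chek1, Chek2, Mdc1, Rnf8 and Rnf168, with widths from 902 bp at Rnf8 to 2222 bp at Rnf168. Trp53bp1, the adaptor that shields broken ends from resection, had no promoter peak. The nearest peak, at Tubgcp4, lay beyond the 3′ end of the gene. Its closest base was 33003 bp from the nearest of 19 TSS, which lies inside the gene, and its midpoint was 99800 bp from the 5′ end. Second peaks inside the gene were found at Atm (681 bp, 25604 bp from a TSS) and at Rnf168 (475 bp, 18826 bp from a TSS), both in introns. These were the only ones among the 43 genes.

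In homologous recombination 9 of 10 genes had a promoter peak. Brca1, which promotes resection and loading of the recombinase, had the widest, 3404 bp (chr11:101550599-101554002), wider than 95.2% of those at other CpG-rich genes. Rad52 had the narrowest, 694 bp (chr6:119902745-119903438), with 31 bp upstream and 662 bp downstream of its TSS. Brca2, Palb2, Rad54l, Xrcc3 and the MRN complex genes Mre11a, Rad50 and Nbn lay between, from 903 bp at Xrcc3 to 2322 bp at Mre11a. The 3 MRN genes differed from each other. The Mre11a peak was centred 32 bp from a TSS, that of Rad50 (943 bp) reached 153 bp upstream and 789 bp downstream, and that of Nbn (1195 bp) began 275 bp downstream. The midpoint of the Nbn peak was 872 bp from its TSS, the farthest still inside the limit of 1 kb. The closest outside the limit was that of Parp1. Rbbp8, which encodes the resection factor CtIP, had no peak nearer than 390269 bp to any of its TSS, the most remote value of the list. Its annotated 5′ end had a CpG ratio of 0.24, and its best TSS one of 0.95.

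Both mismatch repair genes had a promoter peak. Msh6, the mismatch-binding subunit, had 3975 bp (chr17:87972699-87976673), wider than 98.0% of the promoter peaks at other CpG-rich genes, and it reached 2363 bp upstream and 1611 bp downstream. The peak of Pms2, an endonuclease subunit, was 1889 bp wide (chr5:143908786-143910674).

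Nucleotide excision repair had a promoter peak at 5 of 6 genes. Among the damage sensors, Ddb1 had 2958 bp (chr19:10604156-10607113) centred 11 bp from a TSS, Xpc 2537 bp (chr6:91514855-91517391) and Ddb2 1753 bp (chr2:91236446-91238198). The genes for the later steps were narrower or had none. Ercc1, part of the nuclease that cuts 5′ of the lesion, had 1261 bp (chr7:19344331-19345591), and Ercc2, a helicase of TFIIH, had 615 bp (chr7:19382232-19382846). Xpa, which verifies the lesion, had its nearest peak base 45506 bp from a TSS, in a peak of 2426 bp at Ncbp1. That TSS lies inside Xpa, and the midpoint of the peak was 57381 bp from the 5′ end. Of the Fanconi anaemia pathway, which unlinks crosslinked strands, Fancd2 had 1772 bp (chr6:113530676-113532447) and Fanca 659 bp (chr8:123317912-123318570). The Fanca peak reached only 10 bp upstream of the TSS and 648 bp downstream.

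**Figure D2:**
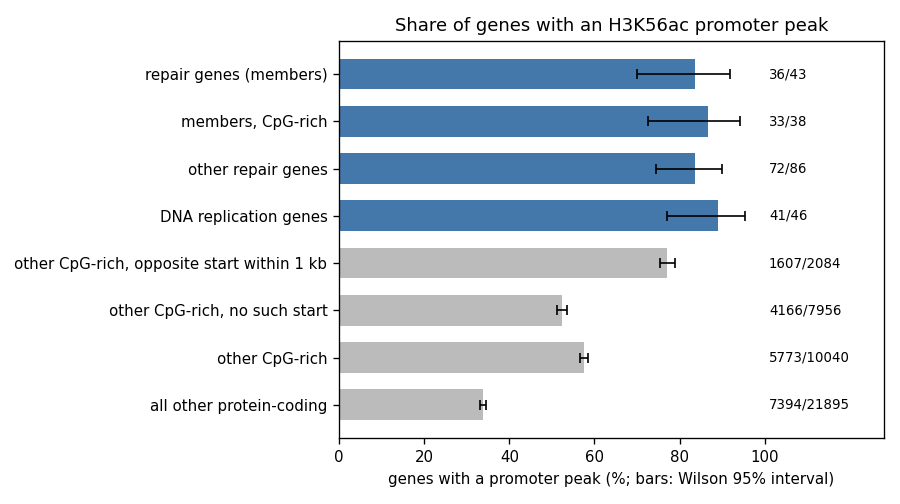
Share of genes with an H3K56ac promoter peak (percent, with Wilson 95% intervals) and the counts behind each bar. The repair genes stood at 83.7%, beside 83.7% of other repair genes, 89.1% of DNA replication genes and 57.5% of other CpG-rich promoters. The shares of the gene lists are over all their genes, CpG-rich or not. The CpG-rich repair genes alone stood at 86.8%.

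Over the 36 promoter peaks the median width was 1828.5 bp (95% interval from order statistics 1488 to 2218 bp), and 1831 bp at the 33 CpG-rich ones. The other CpG-rich promoters with a peak had a median of 1386 bp. Of the 36, 25 were wider than that median, 13 were above the upper quartile and 4 below the lower. At least 3 kb were covered at Msh6, Brca1, Atm and Apex1, which is 4 of 36 (11.1%) against a background of 8.19%. Midpoints lay at a median of 231 bp from a TSS (interval 121 to 320 bp), beside 283 bp at the other CpG-rich promoters, and 33 of 36 (91.7%) were within 500 bp, beside 75.0%. The midpoint fell outside the gene at 13 members, in an intron at 11, in a noncoding exon at 11 and in a coding exon at Rad50 alone. The 36 genes had 36 distinct peaks, although many of these were also the promoter peak of a neighbouring gene outside the list.

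**Figure D3:**
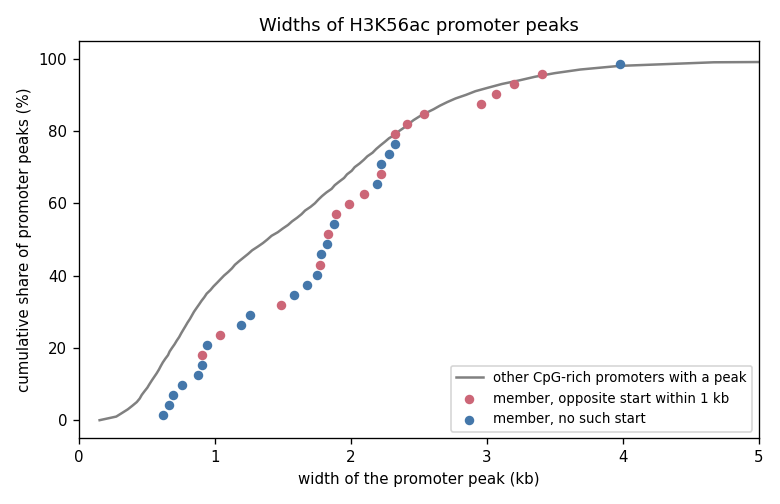
Cumulative share of promoter peaks (percent) by width (kb) for the other CpG-rich promoters (line) and the 36 repair genes (points, coloured by whether a gene on the opposite strand starts within 1 kb). The points lie to the right of the line from the narrowest peaks up to about the upper quartile and close to it among the widest, with the median at 1828.5 bp against 1386 bp.

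Narrow and wide peaks were placed differently around the start. Of the 11 promoter peaks no wider than 1386 bp, 9 had their midpoint downstream of the TSS (81.8%), and their median reach was 37 bp upstream and 789 bp downstream. Rnf8 and Ercc1 were the exceptions, but only as measured from the nearest TSS. From the 5′ end of the gene their midpoints lay 640 and 183 bp downstream. The side also depends on the TSS taken at the wider peaks of Xrcc1, Lig4, Chek2 and Mdc1. Their midpoints lay upstream of the nearest TSS but 911, 898, 219 and 112 bp downstream of the 5′ end. The shares given here, for narrow and wide peaks alike, count from the nearest TSS. Of the 25 wider peaks 8 were centred downstream (32.0%), and all 25 reached at least 500 bp on both sides, with medians of 1144 bp upstream and 1033 bp downstream. Wide peaks at other CpG-rich promoters were near this, with 93.4% reaching 500 bp upstream and 97.0% downstream and medians of 1079 bp and 1129 bp. Other CpG-rich promoters had 65.0% centred downstream among the narrow peaks and 54.6% among the wide. Among their wide peaks with an opposite start within 1 kb the share centred downstream was 39.3%. This split was noticed in the data. A wider peak centred near the start has to reach farther on both sides, so the reach is partly set by the width.

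**Figure D4:**
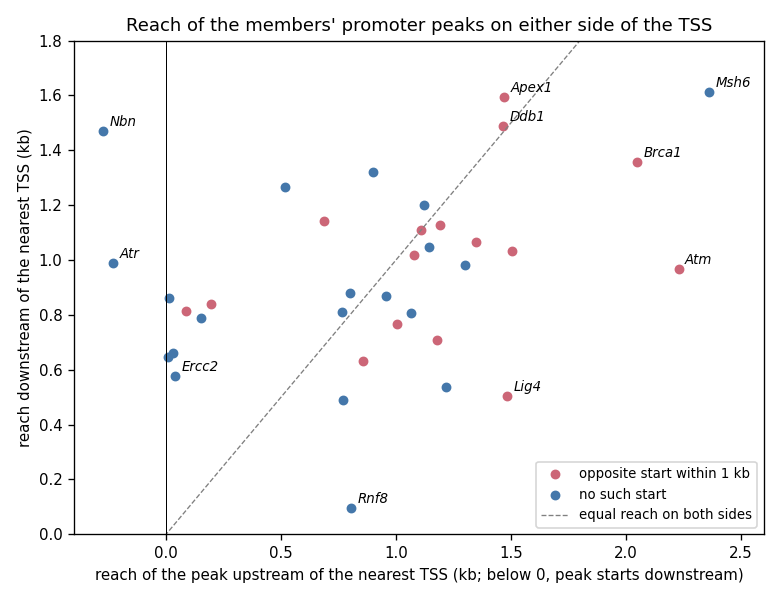
Reach of the 36 promoter peaks upstream (horizontal, kb) and downstream (vertical, kb) of the nearest TSS, with genes that have an opposite start within 1 kb in red. Values below 0 are the peaks of Nbn and Atr, which begin 275 and 231 bp downstream. Rnf8 alone lies near the bottom, with 96 bp downstream of the nearest of its 12 TSS.

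Many of these genes share their start region. A protein-coding gene on the opposite strand started within 1 kb of 18 of the 43 (41.9%), at distances from 19 bp at Ddb1 and Tkfc to 466 bp at Prkdc and Mcm4, with a median of 113 bp. All 18 pairs ran head to head. Among CpG-rich promoters such a neighbour was found at 39.5% of the 38 repair genes and at 20.8% of the others. Counting starts on either strand, 20 of 43 repair genes had a neighbour (46.5%, interval 32.5% to 61.1%), and among CpG-rich promoters 44.7% of repair genes, against 23.0% of the others. Of the 18 pairs, 16 had a promoter peak at the repair gene, and at 15 the same peak was also the promoter peak of the neighbour. Such pairs were Brca1 with Nbr1, Atm with Npat, Mre11a with Ankrd49, Xpc with Lsm3 and Fancd2 with Emc3. A peak there cannot be assigned to either gene.

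Since promoters with an opposite start have peaks more often in general, the comparison was repeated within each kind. With such a start, 14 of 15 CpG-rich repair genes had a promoter peak (93.3%, interval 70.2% to 98.8%), and so had 77.1% of 2084 other CpG-rich genes. Without it, the shares were 19 of 23 (82.6%, interval 62.9% to 93.0%) and 52.4% of 7956. The repair genes thus lay above the background in both kinds, but with an opposite start the interval included the background value. Widths followed the same order. The median was 2209 bp at the 14 CpG-rich repair genes with a peak and an opposite start and 1679 bp at the 19 without such a start. The other CpG-rich genes had 1949 bp and 1161.5 bp.

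CpG content was the other property that went with a peak. Over the other protein-coding genes the share with a promoter peak was 3.73% at CpG ratios up to 0.2 and 63.1% above 0.9. Repair genes had 7 of 7 between 0.6 and 0.7, where the other genes had 48.9%, then 8 of 11, 12 of 14 and 6 of 6 in the bins above. Of the 5 that were not CpG-rich at the 5′ end, Xrcc1, Ercc1 and Rad54l had a peak and Xrcc6 and Rbbp8 had none. When the highest ratio at any TSS of the gene was taken, 41 of the 43 were CpG-rich. Only Ercc1 and Rad54l then had a peak but no CpG-rich TSS. The TSS with the highest ratio need not be the one at the peak. A low CpG ratio did not mark all genes without a peak, since Ung, Prkdc, Trp53bp1 and Xpa had ratios of 0.77, 0.84, 0.72 and 0.77.

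**Figure D5:**
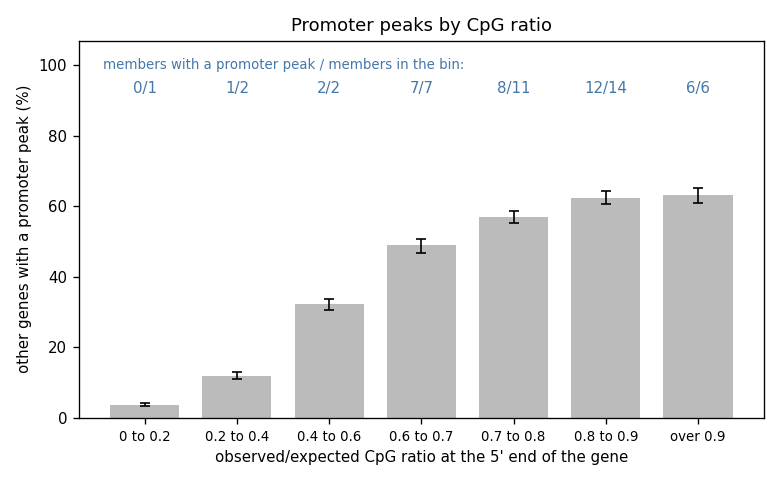
Share of other protein-coding genes with a promoter peak (percent, Wilson 95% intervals) by observed/expected CpG ratio at the 5′ end, from 3.73% to 63.1%. The numbers above the bars are repair genes with a promoter peak out of those in the bin, which reach 7 of 7 and 6 of 6 in the bins from 0.6 to 0.7 and above 0.9.

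Short motifs were counted in the RefSeq promoter windows of 300 bases for the 36 repair genes with an entry and for 7829 other CpG-rich genes. Prkdc, Rad50, Nbn, Rbbp8, Xpc, Ddb2 and Fancd2 had none. The 36 were not filtered by CpG ratio and include Xrcc1, Xrcc6, Rad54l and Ercc1, which were not CpG-rich at the 5′ end. A CCAAT box on either strand was present in 22 of 36 repair genes (61.1%) and in 37.7% of the others. The GC box was about as frequent in both, at 75.0% and 71.7%. The E2F match TTTCCCGC was found at 5 repair genes (13.9%), namely Msh6, Brca2, Chek2, Mdc1 and Xrcc6, against 2.45%, while the other E2F form searched, TTTGGCGC, was found at 0 of 36 and in 1.19%. An ETS match (CCGGAAG) was present in 10 of 36 (27.8%) and in 20.0%. All 10 were among the 31 windows of genes with a promoter peak, and none among the 5 without. Among the other CpG-rich genes the ETS match was in 26.2% of those with a promoter peak and 11.2% of those without. The NRF1 core was present in 13.9% and 6.41%, the TATA box (TATAAA) in 5.56% and 5.79%, and the YY1 match (AAGATGGC) in 0 of 36 and 5.02%. A match says only that these letters occur in the window.

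A second list, 86 further repair genes, was set beside the first. It too was chosen with earlier results of these data known, so it is not an independent check on the choice of genes. At the 5′ end 64 of the 86 were CpG-rich, against 38 of the 43. Of the 86, 72 had a promoter peak (83.7%, interval 74.5% to 90.0%), with a median width of 1748 bp. The 2 lists together gave 108 of 129 genes. By pathway the further genes ranged from 3 of 5 in mismatch repair to 5 of 5 in non-homologous end joining and 9 of 9 in translesion synthesis and direct reversal. Mismatch repair had been at 2 of 2 and end joining at 3 of 5 in the first list, and neither order held beyond the intervals. Their widest promoter peaks were at Rif1 (4085 bp), which limits resection, at H2afx (4002 bp), the histone variant phosphorylated around breaks, and at Rev1 (3109 bp), a translesion polymerase. The most remote nearest peaks were those of Cetn2 (796509 bp), Fancb (559944 bp) and Neil3 (438239 bp). Cetn2 and Fancb, with Brcc3, are the 3 genes of that list on the X chromosome. None of the 3 had a promoter peak, and none of the 43 genes lies on X. Of the 3 only Brcc3 was CpG-rich at its 5′ end, with a ratio of 0.68, and 34.0% of 253 other CpG-rich genes on X had a promoter peak. DNA replication genes, a list close in function, had a promoter peak at 41 of 46 (89.1%, interval 77.0% to 95.3%) with a median width of 1663 bp. This interval overlapped that of the repair genes, and the difference was not tested.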

How the data were processed

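H3K56ac ChIP-seq was measured in V6.5 mESCs with Scramble or Sirt6 shRNA. The authors trimmed reads with Trim Galore, aligned them to mm10 with bowtie keeping reads with 1 location, marked and dropped duplicates (Picard), called peaks (MACS2), removed blacklisted regions and merged peaks with GenomicRanges. The deposited file gives start and end positions of merged peaks, with constant name, score and strand columns. The merged set does not show the library behind a peak, and keeping single-location reads can leave repeats without peaks. The peaks carry no read counts and no expression value was used, so a missing peak may lie below detection.

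Positions are printed counted from 1. TSS were those of all transcripts in GENCODE M21. Where several peaks qualified, the one with its midpoint nearest to a TSS was taken. Members and lists were chosen with earlier results of these data known. Pathways of up to 6 genes are given gene by gene, larger ones by widest, narrowest and missing peaks. Of the further repair genes the 3 widest and 3 most remote are named. Shares have Wilson intervals, and neighbouring genes that share a peak are not independent. No significance test was run. Python 3.11.15, numpy 2.4.6, scipy 1.17.1 and pysam 0.24.0 were used, and the peak assignment was tested on simulated data.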

Additional observations from a re-analysis of the deposited data

How the results depend on the processing

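Of 43 alternatives over 5 results, 39 moved the value by less than its interval, 4 moved it farther and 0 reversed it. Only the difference between shares could have changed sign, so for the other results a reversal was not possible. Taking the widest peak in place of the nearest could not change the width, since no repair gene had more than 1 promoter peak within 1 kb. The share of repair genes with a promoter peak fell to 67.4% when only peaks wider than the median of all peaks were kept, which removes narrow peaks by construction. Among CpG-rich promoters these peaks were then at 68.4% of repair genes and 38.6% of the others. The difference from the other CpG-rich promoters widened to 42.3 percentage points when a peak had to cover a TSS. The median distance in repair genes became 337.5 bp when measured from the 5′ end of the gene alone. No background median is given for that measure, so whether their midpoints are closer than at other promoters is known only for the nearest TSS. Repair genes with a neighbouring start became 65.1% when all annotated genes were counted. No background share is given for that count, so it does not show a trait of repair genes. In the other alternatives the difference ranged from 16.2 points, among genes with an opposite start alone, to 35.8 points, with midpoints within 500 bp. The comparisons that used principal transcripts, the best CpG ratio or genes with an opposite start were chosen after seeing the data. No paired analysis was possible because no value per library is given by the merged peaks. For the same reason no replicate could be left out, and with a constant score no stricter peak threshold could be applied.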
